A study of Homo sapiens with 2 samples.

Results

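The integrated stress response is the programme by which cells slow protein synthesis and switch on a set of rescue genes. Stress-activated kinases phosphorylate the initiation factor eIF2, bulk translation falls, and the mRNA of the transcription factor ATF4 is translated better. ATF4 then raises genes for amino acid supply and tRNA charging together with the factors DDIT3 (also called CHOP) and ATF3. The genes described here are DDIT3, its neighbour on the opposite strand MARS1, ATF4, ATF3, TRIB3, ASNS and CHAC1, 7 of the 64081 genes with a listed count. They were chosen by symbol, and DDIT3 was picked on its high listed count in these same data, so its count is given as a description and was not tested.

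The cells are LNCaP, an androgen-sensitive prostate carcinoma line. Their poly(A)+ RNA was read from both ends with the strand kept, in 2 biological replicates. All cells belong to 1 group, named control in the labels. They were kept for 48 h in RPMI-1640 with 10 mM HEPES and 10% charcoal stripped FBS, and it is the stripping of the serum that removes androgen. The labels name no stressor and there is no second condition, so whether any count reflects a response to stress was not tested. The counts of both replicates were deposited together, hence no value has a replicate error. Each interval is an exact 95% interval that covers counting error only, except that a count of 0 is given with a limit of 3 pairs.

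The methods of the study decide how each count is read. The LNCaP reads were mapped as library type fr-secondstrand, in which the first read has the strand of the RNA, and for paired-end stranded data the reverse option of htseq-count is given, which looks for genes on the other strand. Where both settings were used, a pair listed for a gene was transcribed from the strand opposite to that gene. The listed counts of the 9 prostate luminal markers ranged from 8 for HOXB13 to 6947 for KRT8, with 18 for KLK3 (prostate-specific antigen), and under these settings they cannot serve to check the cell type. Markers of other cell types had 0 or 1 pairs for basal, 0 to 6 for stromal and endothelial, and 0 to 33 for immune genes. In total 9495309 pairs lay on genes, 6.39% of the uniquely placed pairs, and 93.5% lay on no gene of the counted strand.

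DDIT3 and MARS1 meet at their 3′ ends on chromosome 12 of GRCh37. DDIT3, a transcription factor of the C/EBP family that promotes cell death under lasting stress, lies on the minus strand at chr12:57910371-57915520. MARS1, the methionyl-tRNA synthetase that charges the initiator tRNA, lies on the plus strand at chr12:57869228-57911352. In the canonical transcripts the last 60 nt of each gene are exonic on both strands, from 57910376 to 57910435, and both polyadenylation signals lie in that stretch. The signals are shown because they mark where each RNA ends, with the signal in capitals, each read 5′ to 3′ on the strand of its gene.

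MARS1, plus strand, chr12:57910401-57910430: gggacagtAATAAAtaaatgtacaatctct
DDIT3, minus strand, chr12:57910376-57910405: gtccctatctATTAAAgtgactttctatga

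The MARS1 signal ends 21 nt before the end of its canonical transcript, and a second overlapping copy ends 17 nt before it. The DDIT3 signal ends 14 nt before the end of DDIT3. Over all annotated transcripts the genes share 355 exonic nt in 2 blocks. The first, of 68 nt (57910371 to 57910438), is the common 3′ end. The second, of 287 nt (57911066 to 57911352), is the last exon of a longer MARS1 transcript. Of these, 156 nt lie opposite an exon of the canonical DDIT3 transcript, 124 of them coding and including the start of the coding sequence, and the other 131 nt lie opposite its intron. A further 58 nt (57915463 to 57915520) of an upstream first exon of DDIT3 lie opposite MBD6, a methyl-CpG-binding domain gene on the plus strand. Together 413 of the 1307 exonic nt of DDIT3 (31.6%) face an exon of the other strand. MARS1 has 874 such nt of 7028 (12.4%), of which 519 lie opposite ARHGAP9, a GTPase-activating protein gene, in 4 blocks near its 5′ end.

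**Figure D1:**
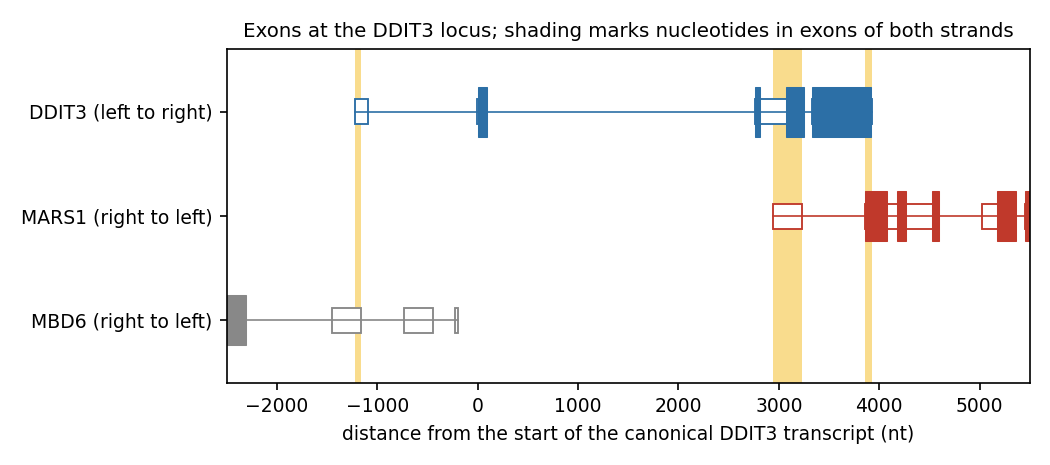
Exons of DDIT3, MARS1 and MBD6 against the distance in nt from the start of the canonical DDIT3 transcript, drawn so that DDIT3 runs from left to right and the genes of the other strand from right to left. Filled boxes are exons of the canonical transcript, open boxes exons of any transcript, and shading marks the 68, 287 and 58 nt that are exonic on both strands; MARS1 and MBD6 continue beyond the plot.

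DDIT3 had by far the most pairs of these genes, followed by MARS1. The listed count was 1738 for DDIT3 (interval 1657 to 1822), which is 183 CPM (scaled to the pairs counted on genes, of which 3 genes held 48.5%), rank 466 of the 28576 genes with at least 1 pair and percentile 98.4 among them. Under the settings above these pairs come from the plus strand, the strand of MARS1. The listed count of MARS1 was 545 (500.2 to 592.7), or 57.4 CPM and rank 1427, from the strand of DDIT3 and ARHGAP9. DDIT3 thus held 76.1% of the 2283 pairs listed for the 2 genes (exact binomial interval 74.3% to 77.9%), a ratio of 3.19. Per kb of exonic length the listed counts were 1330 and 77.5, a ratio of 17.1. Neither count is a level of its own mRNA under these settings, and how many pairs of each count lie in the shared blocks was not tested, because the counts are per gene.

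A high count was more frequent among genes with exons opposite. Of the 19404 protein-coding genes with a gene model, 1.07% had at least the count of DDIT3. That share was 2.54% of the 7112 genes with an exon of another gene on the opposite strand and 0.212% of the 12292 genes without. Among the 678 protein-coding genes with over 25% to 50% of their exonic length covered in this way, DDIT3 stood at percentile 94.5, the median being 83.5 pairs. MARS1 stood at percentile 86.6 among the 1547 genes with over 10% to 25% covered, whose median was 41 pairs. Since DDIT3 was selected on this count and MARS1 as its neighbour, these positions are given as a description. The classes rest on the exons of all transcripts, and in the canonical transcripts the 60 shared nt are 6.64% of DDIT3 and 2.15% of MARS1.

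The other genes at the locus had far lower counts than this pair. Of 11 annotated genes within 50 kb of DDIT3, 10 have a listed count. The highest besides DDIT3 and MARS1 was 84 (67 to 104) for DCTN2, a dynactin subunit. The count of DDIT3 was 20.7 times and that of MARS1 6.49 times as high. Per kb of exonic length DCTN2 had 8.40, against 1330 for DDIT3 and 77.5 for MARS1. Since DDIT3 was picked for its high count and MARS1 as its neighbour, this contrast is given as a description. MBD6 had 63 (48.4 to 80.6) and ARHGAP9 had 47 (34.5 to 62.5). GLI1, a transcription factor of the Hedgehog pathway, had 9 and KIF5A, a neuronal kinesin, had 2. The microRNA gene MIR616 lies in an intron of DDIT3 on the same strand, and its 97 nt had 13 pairs (6.92 to 22.2), which is 134 pairs per kb against 1330 per kb for the exons of DDIT3. In the introns of MARS1 the small RNA copies RN7SL312P and RNU6-594P had 9 and 0 pairs. The 8 other genes together had 227 pairs. Low counts at this locus also occurred with opposite exons. The opposite exonic length was 587 nt for DCTN2, 574 for MBD6 and 524 for ARHGAP9, beside 413 for DDIT3 and 874 for MARS1. It was 71 nt for KIF5A, 5 for GLI1 and 0 for MIR616, RN7SL312P and RNU6-594P.

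**Figure D2:**
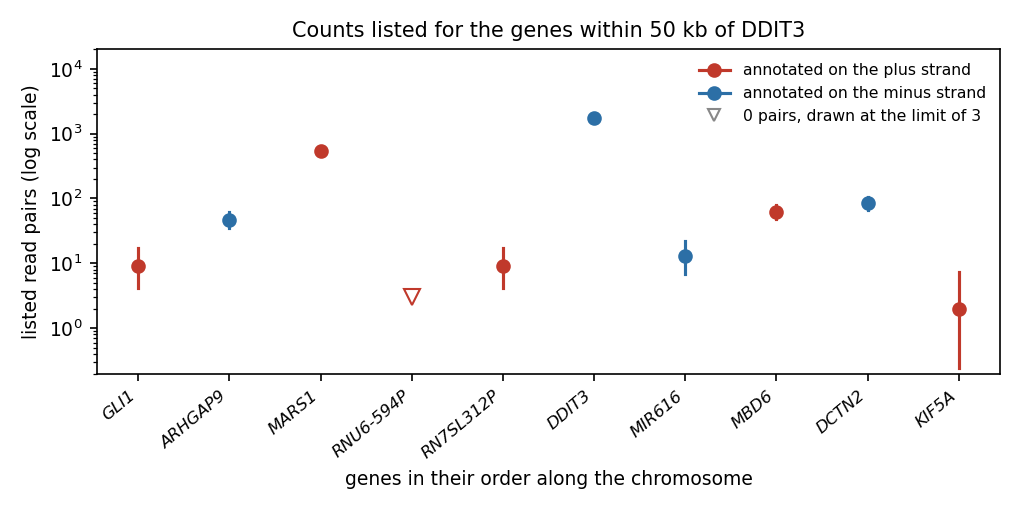
Listed read pairs (log scale) of the 10 genes within 50 kb of DDIT3 in chromosomal order, coloured by annotated strand, with exact 95% Poisson intervals. DDIT3 (1738), which was picked for its high count, and MARS1 (545) stand above the other genes, which lie between 0 and 84. RNU6-594P, with 0 pairs, is drawn at 3.

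The study lists qPCR primers for DDIT3 that avoid the overlap. They are shown because they place an assay of DDIT3 RNA beside the shared nucleotides. Both match exon 4 of the canonical DDIT3 transcript once.

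Forward, chr12:57910908-57910927: tctctggcttggctgactga
Reverse, chr12:57910788-57910808: cgtttcctggttctcccttgg

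The product is 140 nt long, and 0 of its nucleotides lie opposite a MARS1 exon. It falls between the 2 shared blocks.

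The regulators of transcription and signalling had fewer pairs than DDIT3 and MARS1. ATF4, the bZIP factor at the centre of the response, lies at chr22:39915700-39918688 on the plus strand and had 14 pairs (7.65 to 23.5), percentile 52.6 among genes with at least 1 pair. ATF3, a bZIP factor induced early in many stresses, lies at chr1:212738676-212794119 on the plus strand and had 4 pairs (1.09 to 10.2). TRIB3, a pseudokinase that is a target of ATF4 and DDIT3 and restrains AKT signalling, lies at chr20:343479-378203 on the plus strand and had 62 pairs (47.5 to 79.5), percentile 77.0. The interval of TRIB3 lies above that of ATF4, while those of ATF4 and ATF3 overlap. Per kb of exonic length the listed counts were 5.36 for ATF4, 1.00 for ATF3 and 18.8 for TRIB3.

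The metabolic effectors had 4 pairs or none. ASNS, the asparagine synthetase, lies at chr7:97480989-97501854 on the minus strand and had 4 pairs (1.09 to 10.2). CHAC1, which degrades glutathione, lies at chr15:41245160-41248710 on the plus strand and had 0 pairs, which allows up to 3. For neither gene can a difference from ATF3 be detected at this depth. Inside an intron of ASNS, on the plus strand, lies the processed pseudogene ENSG00000226744 of 123 nt at chr7:97499479-97499601. It had 55 pairs, 447 per kb, and under the settings above pairs listed for it come from the strand of ASNS. The listed count of ASNS was 0.817 per kb of exonic length, and under the same settings its pairs come from the plus strand. These densities therefore describe opposite strands, and 0.817 per kb is not a level of ASNS mRNA under these settings. As a near copy of another gene the pseudogene can also receive misplaced reads, and their part in its count was not tested. RN7SL512P, placed likewise in ATF3, had 5.

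Opposite-strand exons went with the high counts in this group. DDIT3 and MARS1 are the 2 of the 7 genes with an exon of another gene opposite, against 36.7% of all protein-coding genes, and they held 2283 of the 2367 pairs (96.5%, exact binomial interval 95.6% to 97.2%). The 5 genes without such exons had 0 to 62 pairs with a median of 4, beside a median of 3 over all protein-coding genes without. TRIB3 was the highest of these, at percentile 91.3 of the genes without opposite exons, followed by ATF4 at 73.1. The nearest protein-coding gene on the opposite strand lies downstream of each, at 6.41 kb for ATF4 (RPS19BP1), 22.4 kb for CHAC1 (INO80), 26.0 kb for TRIB3 (TBC1D20), 65.6 kb for ATF3 (BATF3) and 111.2 kb for ASNS (TAC1). The order of these distances is not the order of the counts. Since DDIT3 was chosen for its count and MARS1 as its neighbour, this split describes these genes and supports nothing further.

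In the wider pathway the median count was also higher where exons lay opposite, with medians near those of all protein-coding genes. A list of 93 genes in 7 groups, the 7 genes included, all had a listed count. Of these, 57 had at least 10 pairs (61.3%), as did 44.2% of all protein-coding genes, and the median was 18 pairs against 6. An exon of another gene lay opposite 45 of them (48.4%), beside 36.7% of all protein-coding genes, so the list and its background differ in this make-up. The median of these 45 was 34 pairs, and the other 48 had a median of 4. The corresponding medians over all protein-coding genes were 24 and 3. At least 10 pairs were listed for 38 of the 45 and for 19 of the 48, beside 63.9% and 32.8% of protein-coding genes with and without opposite exons. Without the 7 genes the medians were again 34 and 4, over 43 genes each. Spearman's rank correlation between listed count and opposite exonic length was 0.503 over the 93 genes, which share 1 library pool and differ in exonic length, and 0.386 over all protein-coding genes.

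The cytosolic aminoacyl-tRNA synthetases, which load amino acids onto tRNAs and many of which are targets of ATF4, had medians of 41 pairs in the 11 genes with opposite exons and 2 in the 9 without. All 11, which include MARS1, had at least 10 pairs, beside 63.9% of all protein-coding genes with such exons. Of the 9 without, 2 did, QARS1 with 43 and TARS1 with 17, beside 32.8% of all protein-coding genes without. MARS1 had the highest count of the 20, followed by HARS1 with 340 pairs (opposite WDR55 over 1090 nt), KARS1 with 251 (opposite TERF2IP over 176 nt), CARS1 with 154 and YARS1 with 117. FARSB had 0 and VARS1 had 1, both without opposite exons. The enzymes are named for the amino acid they attach, so that QARS1 attaches glutamine, TARS1 threonine, HARS1 histidine, KARS1 lysine, CARS1 cysteine, YARS1 tyrosine, VARS1 valine and the enzyme of which FARSB is a subunit phenylalanine.

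Among the eIF2 kinases and eIF2 partners, 11 of 15 had at least 10 pairs, beside 44.2% of all protein-coding genes. An exon of another gene lay opposite 10 of the 15, a larger share than the 36.7% of all protein-coding genes. Of these 10, 8 had at least 10 pairs, beside 63.9% of all protein-coding genes with such exons. Of the 5 without, 3 did, beside 32.8% of those without. EIF2AK1, the heme-regulated kinase HRI, had 1778 pairs, the highest count of the 93 genes, with an interval (1696 to 1863) that overlaps that of DDIT3. It lies opposite AIMP2 over 532 nt, and AIMP2, which itself had 323 pairs, is a scaffold of the complex that holds several tRNA synthetases, MARS1 included. EIF2AK4 (GCN2), the sensor of uncharged tRNA, had 187 pairs with no exon opposite, and EIF2AK2 (PKR) had 53. EIF2AK3 (PERK), the sensor of the endoplasmic reticulum, had 5 pairs and 781 opposite nt. PPP1R15A, the phosphatase subunit that ends the response, had 6.

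The other transcription factors ranged from 1 pair for CEBPG, a dimer partner of ATF4, to 186 for ATF5, a bZIP factor opposite the nucleoporin gene NUP62 over 565 nt. NFE2L2, the oxidative stress factor NRF2, had 132 and lies opposite HNRNPA3 over 3509 nt. CEBPB had 6 pairs and 231 opposite nt. Of the amino acid and one-carbon enzymes 7 of 12 had at least 10 pairs, again beside 44.2% of all protein-coding genes, from 0 for PSAT1 and ALDH18A1 to 81 for CBS. Of the amino acid transporters 5 of 9 reached that minimum, a share that like the others of this paragraph is to be read against the same 44.2%. SLC1A4 led them with 135 pairs and no exon opposite, and SLC7A5, the large neutral amino acid carrier, had 0 pairs and 271 opposite nt. Of the stress effectors 9 of 15 reached it, INHBE, an activin subunit, being highest with 81 and TRIB3 next with 62, whereas the hormone FGF21 had 0 like CHAC1. An exon of another gene lay opposite 4 of the 12 enzymes, 4 of the 9 transporters and 7 of the 15 effectors. Over all protein-coding genes that share was 36.7%.

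The promoters were searched for the core of the C/EBP-ATF response element, TGATGNAA, to which ATF4 binds with a C/EBP partner. Promoters of RefSeq on GRCh38.p14 (250 bases before to 50 after a start) were found for all 7 genes. The motif, on either strand, was in 4 of their 13 promoters, against 3.62% of 35116 promoters of the same length. The matches, with the motif in capitals, are printed because they show which of these genes hold the element near a start, each on the strand of its gene.

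MARS1, plus strand, chr12:57488042-57488071: agaagcgggaggccggttccggTTGCATCA
ATF3, plus strand, chr1:212565205-212565234: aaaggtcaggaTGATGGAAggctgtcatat
ASNS, minus strand, chr7:97872458-97872487: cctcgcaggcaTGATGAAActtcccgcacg
CHAC1, plus strand, chr15:40953251-40953280: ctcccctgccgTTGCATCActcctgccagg

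The motif begins 4 nt before the start in MARS1, 68 nt before it in ASNS, 191 nt in ATF3 and 209 nt in CHAC1, and in MARS1 and CHAC1 it lies on the opposite strand and is read as TTNCATCA. These letters are not in the windows of DDIT3, ATF4 and TRIB3. The listed counts of the genes with a match ran from 0 to 545 and of those without from 14 to 1738, so the ranges overlap.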

How the data were processed

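Per the labels and methods, the authors called bases with CASAVA 1.8, trimmed with Trimmomatic 0.30, aligned to hg19 with TopHat 2.0.12 and Bowtie 2.2.3, and counted pairs per gene with htseq-count 0.6.1p1. The deposited values are raw counts of read pairs, both replicates in 1 column, so counts cannot be compared between replicates. The 5 summary categories of htseq-count were kept out of totals.

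Genes were matched by Ensembl identifier to GENCODE 44 on GRCh37 (55538 genes), a later annotation than the one counted on, so opposite exons may differ from those the authors used. Exonic length is the union of all exons, and an opposite exon shares at least 1 nt. Intervals are exact Poisson or binomial (Clopper-Pearson); a count of 0 allows 3. The methods name no molecular identifiers, so pairs can be PCR copies of one another. Named were the 7 genes, genes opposite or within 50 kb of DDIT3, and the 5 highest and 5 lowest of the pathway lists; others were named after their values were seen. The members and lists were chosen with earlier results of these data known. Overlap code was tested on simulated gene models. The promoter search was void for the 93 genes, as 79.6% matched. Python 3.11.15, numpy 2.4.6, pandas 2.3.3, scipy 1.17.1 and matplotlib 3.10.9 were used.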

Additional observations from a re-analysis of the deposited data

How the results depend on the processing

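The percentile of DDIT3 was 97.0 among genes with at least 10 counts, 98.6 among protein-coding genes with at least 1 count and 99.3 among all listed genes. Its CPM was 355.5 without the 3 highest genes and 11.7 over all uniquely placed pairs, and that of MARS1 was 111.5 and 3.67. The share of DDIT3 in the pairs of DDIT3 and MARS1 was 94.5% per kb and 94.9% per kb not shared with a gene of the same strand. With canonical transcripts, an alternative chosen after seeing the data, the opposite exonic length was 60 nt for both DDIT3 and MARS1. With a minimum of 50 pairs, 26 pathway genes passed (28.0%), beside 20.8% of all protein-coding genes. Per kb, the medians of pathway genes with and without opposite exons were 6.31 and 0.899. With at least 50 or 200 shared nt the median without was 5.5 or 7 pairs, and that with stayed 34. DDIT3 and MARS1 stayed the 2 with opposite exons at each minimum overlap tried. Leaving out a replicate was not run, because the replicates share a column. No paired analysis was possible because there is 1 group. Counts under 10 have wide intervals, which limits ATF3, ASNS and CHAC1.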

Other observations

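The endoplasmic reticulum chaperones and sensors, the arm of the unfolded protein response that works beside the kinase PERK, had a median of 13 pairs for the 5 genes with an exon of another gene opposite and 15 for the 7 without, a difference that was not tested. At least 10 pairs were listed for 3 of the 5, beside 63.9% of all protein-coding genes with such exons. The same held for 4 of the 7, beside 32.8% of those without. HSP90B1, the chaperone GRP94, had the highest count with 261 pairs and lies opposite UQCC6 over 805 nt. CALR and HYOU1 had 3 pairs each, with 270 and 667 opposite nt. DNAJB9, a co-chaperone of the endoplasmic reticulum, had 108 pairs and HSPA5, its main chaperone BiP, had 52, both without an exon opposite.

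Counts were listed for 8 pseudogenes named after ATF4 or ASNS. Of these 7 had 0 pairs, and ASNSP5 had 8, against 14 for ATF4 and 4 for ASNS. Of all 64081 listed genes, 28576 had at least 1 pair.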
